A study of Mus musculus with 12 samples.

Results

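Transcripts of the immunoglobulin constant chains and of the machinery that secretes antibody were followed in the duodenum and liver of CORT-treated and vehicle-treated mice. The set held 10 genes, taken by symbol from the 55416 genes listed in both tables. It comprised the heavy chain constant genes Igha, Ighm, Ighg1, Ighg2b, Ighg2c and Ighg3, the kappa light chain constant gene Igkc, the joining chain gene Jchain, the polymeric immunoglobulin receptor gene Pigr, and Tnfrsf17, which encodes the plasma cell receptor BCMA. Male C57BL6/J mice, 8 weeks old at the start, were injected under the skin with corticosterone (CORT, 40 mg/kg), the main glucocorticoid of rodents, or with vehicle alone (Veh), each day for 8 weeks. RNA from 50 mg of tissue was sequenced for 3 CORT and 3 Veh mouse samples per tissue, which gave 12 libraries in 4 groups. No group carried a transgene or a deletion, and both groups were injected. Levels are TPM, transcript abundances that are scaled for gene length and for each library's total. The depth behind a TPM value is unknown, so no counting interval is given.

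The gut lining is the main site of antibody secretion in the body, and most plasma cells there make IgA. Pairs of IgA molecules are held together by the joining chain, bind the polymeric immunoglobulin receptor on the inner face of epithelial cells, and are carried across into the lumen with a fragment of that receptor attached. BCMA receives survival signals from the cytokines APRIL (Tnfsf13) and BAFF (Tnfsf13b) on long-lived plasma cells. A rise or fall of these transcripts in a piece of tissue can come from more or fewer cells or from more or less RNA in each cell, and bulk libraries cannot tell these apart.

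In the duodenum, Igha, Igkc and Tnfrsf17 fell with CORT, with no overlap between the libraries of the groups, whereas Ighm and the 4 Ighg genes did not pass the test. Jchain and Pigr were lower in every CORT library than in every Veh library without passing it. In the liver, where all of these genes except Pigr were scarce, none passed the test. A gene passed when limma gave a Benjamini-Hochberg adjusted p of 0.05 or less over all genes tested and the fold change was over 1.5. Fold changes are differences of log2(TPM + 1), CORT minus Veh, and for weakly expressed genes this scale gives less than the true change. By this rule 3 of the 10 genes were lower in the duodenum and 0 higher, against 0.919% lower and 1.23% higher among the 13607 tested genes. At an unadjusted p under 0.05 and the same fold limit, 5 were lower, against 5.36% of all tested genes. Groups that did not overlap, with CORT lower, were seen for 5 of the 10, against 14.3% of all tested genes.

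The IgA heavy chain dominated the antibody transcripts of the duodenum. Igha reached 7143, 8683 and 8467 TPM with vehicle and 3217, 3738 and 2425 TPM with CORT. The lowest Veh library was thus far above the highest CORT library. Igha fell by 1.39 on the log2 scale (SE 0.20, adjusted p = 0.0272), from 8098 ± 834.1 to 3127 ± 661.5 TPM (SD, n = 3), a level 2.59-fold higher in Veh. The call was lost when CORT1 (adjusted p = 0.0718), CORT3 (0.0703), Veh2 (0.0906) or Veh3 (0.115) was left out, while the log2 change stayed between -1.53 and -1.22.

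The sequences of the constant regions show where the genes of this set share stretches of sequence. The first 90 coding bases of each constant region, read from the GENCODE M21 transcripts, are shown so that the 4 Ighg genes can be compared with each other and with the genes that carried most of the signal. Capitals mark the 29 positions at which the 4 Ighg genes are not all alike, and the other sequences are in lower case throughout.
Igha: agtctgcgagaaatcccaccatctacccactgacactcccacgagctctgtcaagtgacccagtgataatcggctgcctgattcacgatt
Ighm: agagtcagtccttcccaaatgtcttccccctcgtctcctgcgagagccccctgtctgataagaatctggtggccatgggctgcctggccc
Ighg1: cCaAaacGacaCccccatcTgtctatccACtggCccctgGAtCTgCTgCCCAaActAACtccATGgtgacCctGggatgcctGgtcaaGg
Ighg2b: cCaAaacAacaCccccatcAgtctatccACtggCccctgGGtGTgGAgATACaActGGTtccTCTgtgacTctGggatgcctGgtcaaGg
Ighg2c: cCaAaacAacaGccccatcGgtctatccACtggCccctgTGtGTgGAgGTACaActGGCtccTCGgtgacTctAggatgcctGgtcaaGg
Ighg3: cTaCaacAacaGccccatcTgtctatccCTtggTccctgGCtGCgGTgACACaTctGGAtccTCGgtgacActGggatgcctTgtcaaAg
Igkc: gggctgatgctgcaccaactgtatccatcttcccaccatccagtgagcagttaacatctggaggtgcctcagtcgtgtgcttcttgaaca
Over the whole coding sequence, Ighg2b and Ighg2c were the most alike of the Ighg genes, with 85.3% identity, and the other Ighg pairs had between 75.0% and 77.3%. Of the 50-base windows of Ighg2b, 5.8% occurred unchanged in Ighg2c, as did 4.8% of the windows of Ighg2c in Ighg2b. No 50-base window of Igha, Ighm, Ighg1 or Ighg3 occurred in another of the 6 heavy chain genes. Ighg2b and Ighg2c were therefore the only heavy chain genes that shared windows. The reads of the paper were longer than 50 bases, so these windows do not show that whole reads were shared.

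Ighm, the heavy chain of IgM, read 22.1, 17.3 and 26.7 TPM in the 3 Veh duodena and 15.2, 87.7 and 20.8 TPM in the 3 CORT duodena. CORT2 alone was high, and the other CORT libraries lay within or below the Veh range. The log2 change was 0.47 (SE 0.60, adjusted p = 0.694), and without CORT2 it was -0.28. CORT2 was also the highest library for Ighg2b, at 31.6 TPM, for Ighg2c, at 10.2 TPM, and for Ighg3, at 6.08 TPM. For Ighg1 the highest library was Veh1, at 16.4 TPM, and CORT2 came next at 10.1 TPM.

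The 4 Ighg genes, which encode the heavy chains of the IgG subclasses, gave log2 changes between -0.58 for Ighg2b and 0.36 for Ighg3, with standard errors between 0.56 and 0.63. Their adjusted p ranged from 0.596 to 0.958, and the groups overlapped for each of them. Ighg2b was at 15.9, 16.6 and 20.1 TPM in Veh and at 5.40, 31.6 and 8.02 TPM in CORT, so 2 of the 3 CORT libraries lay under every Veh library and CORT2 lay above. Without CORT2 the log2 change of Ighg2b was -1.28 and still did not pass (adjusted p = 0.0631). Summed, the 4 genes came to 24.9 to 36.0 TPM in Veh and 10.7 to 57.9 TPM in CORT.

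**Figure D1:**
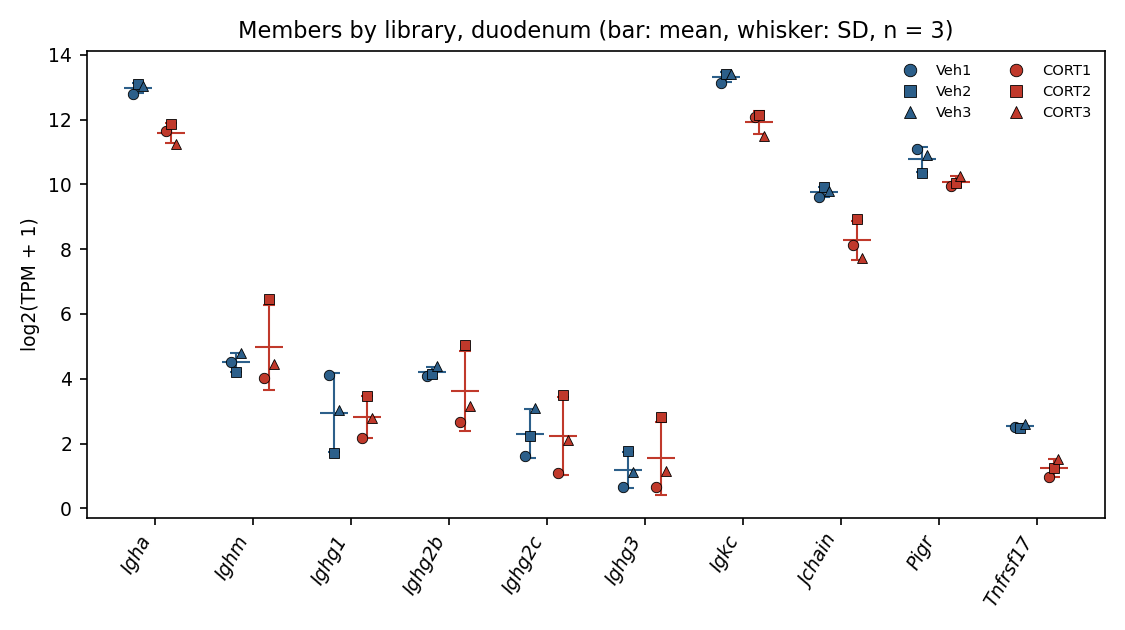
Levels of the 10 genes in each duodenal library, as log2(TPM + 1) on the vertical axis, with Veh in blue and CORT in red, a bar for the mean and a whisker for the SD of 3 libraries. The groups stand apart for Igha, Igkc, Jchain, Pigr and Tnfrsf17, and CORT2 (red square) is the highest library for Ighm, Ighg2b, Ighg2c and Ighg3.

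The kappa light chain, which pairs with any heavy chain, moved with Igha. Igkc was at 9003, 10904 and 10802 TPM in Veh and at 4342, 4529 and 2905 TPM in CORT. No CORT library reached the lowest Veh level. Igkc fell by 1.40 on the log2 scale (SE 0.21, adjusted p = 0.0302), and the Veh mean was 2.61-fold the CORT mean. Its call held when Veh1 was left out (adjusted p = 0.0491) and was lost when any other library was, with adjusted p from 0.0602 without CORT2 to 0.124 without Veh3.

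Jchain, whose product joins IgA and IgM into polymers, was at 785, 965 and 883 TPM in Veh and at 281, 488 and 212 TPM in CORT. Its groups did not overlap, with CORT2 the highest of the CORT libraries. The log2 change of -1.5 (SE 0.30) was the most negative of the 10 genes in the duodenum but missed the threshold (adjusted p = 0.0568). Without CORT2 it was -1.84 and passed (adjusted p = 0.0238). An exact permutation test of 3 libraries against 3, two-sided, gave 0.1 for each gene without overlap, which is the smallest value it can give.

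The proportions of Igha, Igkc and Jchain among these transcripts showed less difference than their levels. Igha made up 99.2%, 99.5% and 99.3% of the summed heavy chain TPM in the Veh libraries and 99.2%, 96.3% and 98.4% in the CORT libraries, with means of 99.3% and 97.95%. Igkc amounted to 1.25, 1.25 and 1.27 times the summed heavy chains in Veh and to 1.34, 1.17 and 1.18 times in CORT. Jchain was 10.99%, 11.1% and 10.4% of Igha in Veh and 8.73%, 13.1% and 8.75% in CORT. The kappa ratio and the joining chain share overlapped between the groups.

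A pair of minor fractions did separate. Ighm was 0.306%, 0.199% and 0.313% of the heavy chain sum in Veh and 0.468%, 2.26% and 0.843% in CORT, so every CORT library had the larger share, the denominator being the sum that fell. Lambda constant genes were 1.44%, 2.14% and 1.27% of the light chain sum in Veh and 0.611%, 1.15% and 0.594% in CORT, so every CORT library had the smaller share. The lambda gene Iglc2 itself was at 80.6, 238 and 139 TPM in Veh and 18.7, 52.8 and 15.1 TPM in CORT (log2 change -2.44, SE 0.54, adjusted p = 0.0746), without overlap. These shares are descriptions and were not tested.

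**Figure D2:**
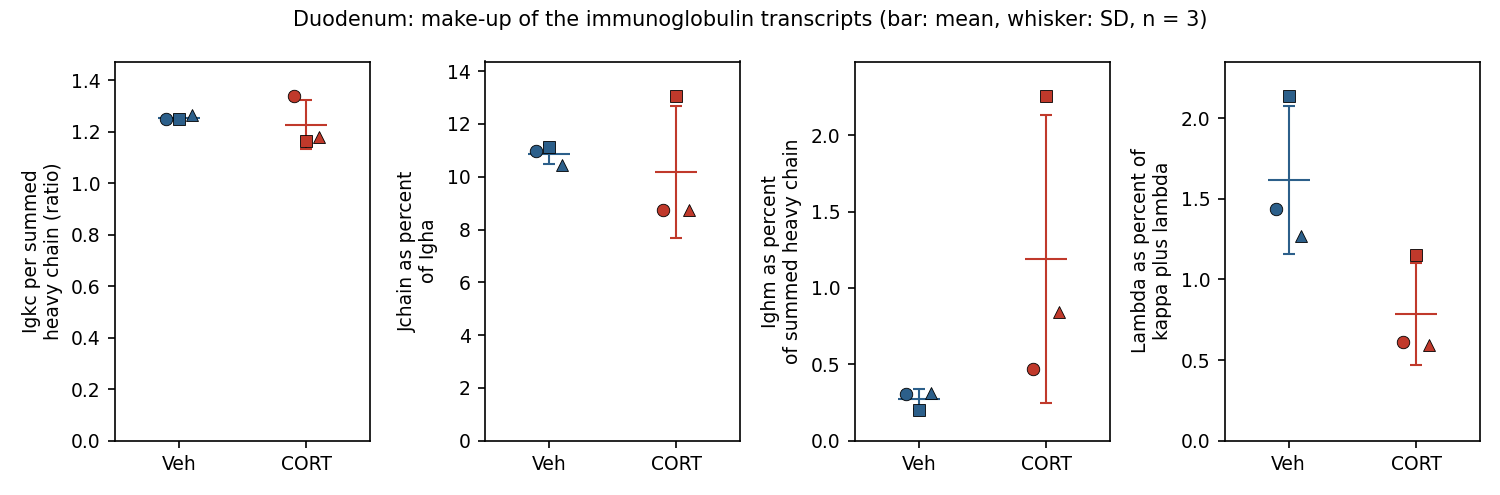
Proportions among immunoglobulin transcripts in the duodenum, with each library as a point, a bar for the mean and a whisker for the SD of 3 libraries, on axes that start at 0. The ratio of Igkc to heavy chain and the share of Jchain overlap between Veh and CORT, the Ighm share is above every Veh library in each CORT library, and the lambda share is below every Veh library.

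Variable segments, which are joined to the constant chains in the same transcripts and are listed as genes of their own, showed the same order of libraries as Igha and Igkc. The 346 heavy and light chain V segments summed to 33400, 45880 and 44190 TPM in Veh and to 14520, 21520 and 13170 TPM in CORT. Between 190 and 195 of them were above 0 in a Veh library and between 173 and 179 in a CORT library. All 393 immunoglobulin genes and segments together took 4.99% to 6.59% of the TPM total in Veh and 1.87% to 3.02% in CORT. Expressing each gene relative to the non-immunoglobulin total left the same 3 genes called.

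Pigr, the epithelial carrier of IgA, read 2171, 1301 and 1903 TPM in the Veh duodena and 981, 1057 and 1234 TPM in those given CORT. Every CORT library was below every Veh library, but Veh2 was close to CORT3. The log2 change was -0.69 (SE 0.22, adjusted p = 0.16), which did not pass. Per unit of Igha, Pigr stood at 0.304, 0.150 and 0.225 in Veh and at 0.305, 0.283 and 0.509 in CORT, and these ranges overlapped.

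The promoter of Pigr is shown because it was the only one of the 3 promoters with a RefSeq entry for this set, those of Pigr, Jchain and Tnfrsf17, in which a searched motif occurred. RefSeq places these 250 bases before the start site at chr1:130826434-130826683 on the plus strand of GRCm38.p6, an older build than the GRCm39 of the tables. Capitals mark the motifs.
Pigr promoter: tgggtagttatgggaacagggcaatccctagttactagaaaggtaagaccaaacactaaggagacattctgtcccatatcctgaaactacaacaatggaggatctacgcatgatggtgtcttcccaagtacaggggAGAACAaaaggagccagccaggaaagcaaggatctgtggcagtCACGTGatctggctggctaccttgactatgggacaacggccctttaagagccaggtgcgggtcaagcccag
The motifs were the E-box CACGTG, which reads the same on both strands, the octamer ATGCAAAT of immunoglobulin promoters, and AGAACA, one arm of a glucocorticoid receptor site. Each was searched on both strands in 300 bases, of which the last 50 follow the start, and the motifs share no letters with one another in Pigr. AGAACA began 114 bases before the start site and CACGTG 71 bases before it. Of all 32851 promoters of this length, 18.97% held AGAACA, 7.15% held CACGTG and 1.74% held ATGCAAAT. The matches are letters in a window and carry no measurement of binding.

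Tnfrsf17, the BCMA receptor of plasma cells, was at 4.69, 4.53 and 5.12 TPM in Veh and at 0.97, 1.36 and 1.87 TPM in CORT in the duodenum. The Veh libraries lay close together, far above all CORT libraries. It fell by 1.28 on the log2 scale (SE 0.18, adjusted p = 0.0267), and the Veh mean of 4.78 ± 0.31 TPM was 3.41-fold the CORT mean of 1.40 ± 0.45 TPM (SD, n = 3). The call held without CORT3 (adjusted p = 0.0377) and was lost when any other library was left out, with adjusted p from 0.0544 without Veh1 to 0.113 without Veh3.

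Other plasma cell genes of the duodenum mostly had negative log2 changes with CORT, but few passed. Of 13 tested plasma cell identity genes, 1 was called lower and 0 higher, against 0.919% and 1.23% of all tested genes. A negative log2 change was seen for 12, and the median was -0.55 against -0.01 over all tested genes. The called gene was Sdc1, a surface proteoglycan of plasma cells that epithelial cells also carry, at 36.3, 38.8 and 38.4 TPM in Veh and 23.2, 19.3 and 25.0 TPM in CORT (log2 change -0.73, SE 0.13, adjusted p = 0.0462). Its call did not hold when any of the 6 libraries was left out (adjusted p from 0.0766 to 0.167). The regulators of the plasma cell programme Prdm1, Xbp1 and Irf4 had log2 changes of -0.52, -0.51 and -0.69, with adjusted p from 0.118 to 0.204. Irf4 was at 1.64 TPM in Veh1 and at 3.25 and 3.07 TPM in Veh2 and Veh3. Without Veh2 and Veh3 the changes of Prdm1, Xbp1 and Irf4 were -0.51, -0.59 and -0.25. Ell2, an elongation factor used in making secreted heavy chain mRNA, was the exception in sign, with a log2 change of 0.94 (adjusted p = 0.0847).

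Genes of the secretory machinery load, fold and export antibody chains. Of 16 tested, 0 were called at the adjusted threshold, 14 had a negative log2 change, and the median was -0.33. Mzb1, a chaperone of antibody assembly, was at 28.2, 45.9 and 30.4 TPM in Veh and 11.1, 18.5 and 8.03 TPM in CORT (log2 change -1.45, SE 0.31, adjusted p = 0.0704). Derl3, which helps to clear misfolded chains from the endoplasmic reticulum, had a log2 change of -0.95 (SE 0.22, adjusted p = 0.0862). Both were without overlap between groups. Herpud1, another gene of that clearing pathway, had a change of 0.47 (adjusted p = 0.329).

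B cell genes set 1 duodenal library apart. Of 18 listed, 12 passed the filter on low values, 6 of them through the CORT mean alone, 0 were called, and the median log2 change was 0.28. The summed level of the list was 34.4, 46.3 and 51.1 TPM in Veh and 21.9, 91.7 and 29.5 TPM in CORT. Ms4a1, which encodes CD20, was at 3.79 TPM in CORT2 and at 0.24 TPM or less in every other library. Ighd, the heavy chain of naive B cells, was at 7.36 TPM in CORT2 and at 1.01 TPM or less elsewhere. Ms4a1 and Ighd passed the filter through their CORT mean alone, which CORT2 raised, so their values cannot serve as support. CORT2 was also the library with the highest Ighm, Ighg2b, Ighg2c and Ighg3. The part of B cell transcripts in those levels was not tested. Cd79a, a signalling partner of surface immunoglobulin that plasma cells keep in part, had a log2 change of -0.80 (adjusted p = 0.402), which became -1.40 without CORT2 and passed (adjusted p = 0.0289).

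**Figure D3:**
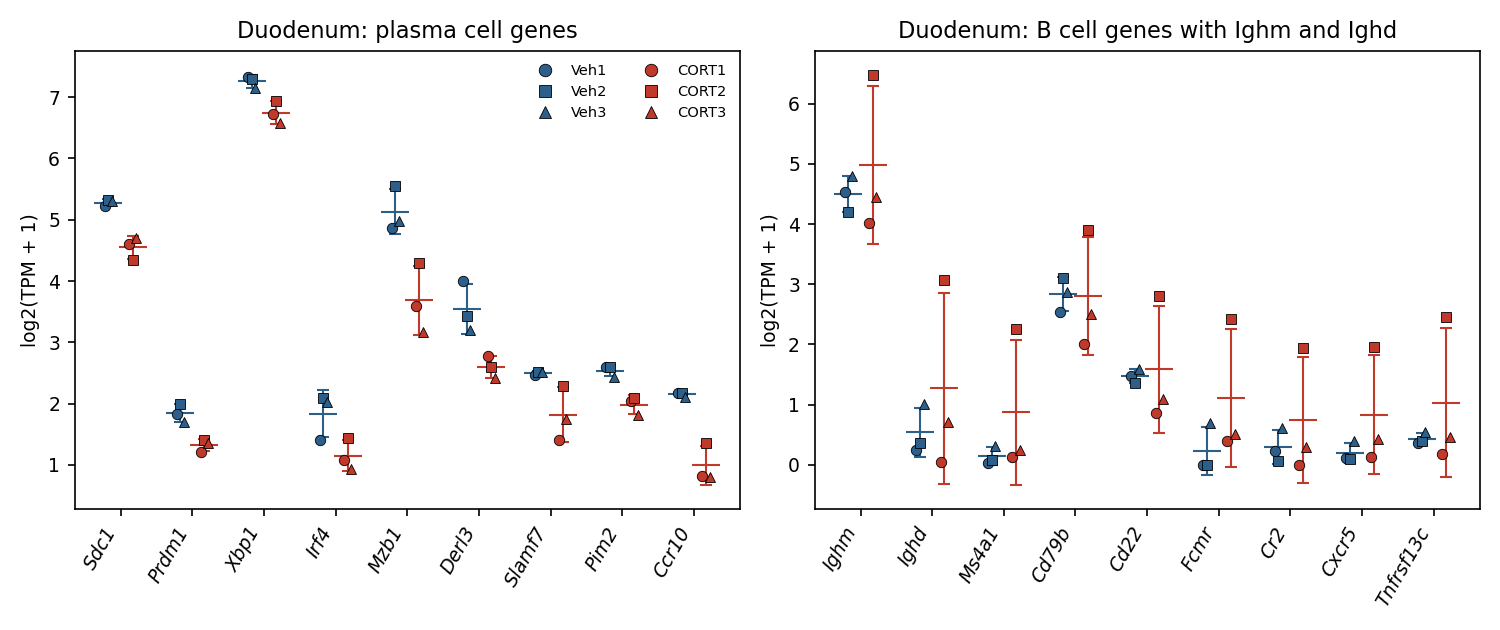
Plasma cell genes (left) and B cell genes with Ighm and Ighd (right) in each duodenal library, as log2(TPM + 1), with Veh in blue, CORT in red, a bar for the mean and a whisker for the SD of 3 libraries. The 9 genes drawn on the left have lower means in CORT, and CORT2 (red square) is above the other 5 libraries for each of the 9 genes drawn on the right. The genes drawn beyond those the text names were chosen after their values were seen and do not stand for their lists, in which Ell2 had the higher mean in CORT and Cd72 was highest in Veh3. Of the genes on the right, Ighd, Ms4a1, Fcmr, Cr2, Cxcr5 and Tnfrsf13c passed the filter through their CORT mean alone.

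Among genes that attract, induce or retain IgA-secreting cells, 1 of 16 tested was called lower and 0 higher, with a median log2 change of -0.14. The share called lower over all tested duodenal genes was 0.919%. The called gene was Ccr10, the receptor by which IgA plasma cells home to CCL28, at 3.50, 3.50 and 3.32 TPM in Veh and 0.77, 1.55 and 0.74 TPM in CORT (log2 change -1.16, SE 0.20, adjusted p = 0.0397). Omitting each of the 6 libraries in turn kept its call in 1 case, that without CORT2 (adjusted p from 0.0334 to 0.143). The survival factors Tnfsf13 and Tnfsf13b had log2 changes of -0.20 and -0.49 (adjusted p = 0.442 and 0.428), and the chemokines Ccl25 and Ccl28 had changes of -0.51 and -0.39 (adjusted p = 0.151 and 0.529). Ccl25, which draws IgA-secreting cells to the small intestine, was without overlap between groups, at 544 to 737 TPM in Veh and 412 to 445 TPM in CORT.

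Germinal centre and follicle genes held calls in both directions. Of 6 tested, 2 were higher and 1 lower, the latter being Tnfrsf17, which the list shares. Among all 13607 tested genes 1.23% were called higher and 0.919% lower. Cxcl13, a chemokine that draws B cells into follicles, rose from 1.41, 0.88 and 2.44 TPM in Veh to 8.14, 31.3 and 16.1 TPM in CORT (log2 change 2.78, SE 0.46, adjusted p = 0.035), with CORT2 the highest. Icosl, a ligand that B cells and other cells present to helper T cells, rose from 6.39 ± 1.01 to 14.5 ± 1.85 TPM (log2 change 1.07, SE 0.16, adjusted p = 0.0272). With each of the 6 libraries omitted in turn, Cxcl13 passed in 1 case, that without CORT1 (adjusted p from 0.0361 to 0.105) and Icosl in 0 (from 0.0541 to 0.0919).

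Antibody transport genes other than Pigr gave 1 call, which was higher, while 1.23% of all tested duodenal genes were called higher. Of 12 tested antibody transport and Fc receptor genes in the duodenum, Fcgrt, the neonatal Fc receptor that carries IgG across cells and spares it from breakdown, rose from 85.7 ± 12.04 to 164 ± 27.5 TPM (SD, n = 3; log2 change 0.93, SE 0.17, adjusted p = 0.0492), and 0 were lower. Its call was lost when any of the 6 libraries was left out (adjusted p from 0.0666 to 0.149). Of 19 tested genes known to induce Pigr or to act on its promoter, 0 were called in the duodenum, and their median log2 change was -0.10. The one nearest to the threshold, named after its values were seen, was Il17rc, a receptor chain for IL-17, at 57.3 to 95.0 TPM in Veh and 19.3 to 40.7 TPM in CORT (log2 change -1.43, adjusted p = 0.0703).

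Transcripts of other cells also differed between the duodenal groups, and their part in the results was not tested. Pancreatic acinar transcripts, summed over 27 of the 28 listed genes, took 4.22% and 3.35% of the TPM total in Veh2 and Veh3 and 0.0692% to 0.0968% in the other 4 libraries. Zg16, which intestinal goblet cells also make, was left out of that sum after its values were seen, since it was at 4313 to 6499 TPM in all 6 libraries. The acinar protease gene Ctrb1 was at 7733 and 6026 TPM in Veh2 and Veh3, at 14.5 TPM in Veh1 and at 0.76 TPM or less in CORT. In a fit without Veh2 and Veh3, which left a lone Veh library, Igha, Igkc and Tnfrsf17 had log2 changes between -1.21 and -1.26. A lone Veh library shows no spread of its own, so no call was read from that fit. With all 28 genes of that list removed and the rest rescaled, the same 3 genes were called. The 5 red blood cell genes were higher in every CORT library, with a summed level of 366 to 706 TPM against 119 to 247 TPM, although 0 of 5 were called. Of 14 epithelial genes 0 were called, 7 had positive and 7 negative log2 changes, and the median was -0.000797. Their sum was 31280 to 35530 TPM in CORT and 20450 to 26100 TPM in Veh, without overlap. Apoa4, an apolipoprotein gene that made up a large part of it, was at 16882 to 21545 TPM in CORT and 7906 to 12570 in Veh. The sums without Apoa4 overlapped, at 13185 to 14395 TPM in CORT and 12149 to 13525 TPM in Veh. Apoa4 was left out after its values were seen. Of 10 tested T cell genes 0 were called, and of 11 macrophage genes 2 were higher, namely Clec4f, a lectin of liver macrophages, and the scavenger receptor gene Cd163. Clec4f was at 0.15 TPM or less in Veh and at 5.31 to 10.3 TPM in CORT. Clec4f and Cd163 passed the filter through their CORT mean alone, so their calls cannot serve as support.

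The libraries matched their tissue and treatment labels. The epithelial gene Vil1 was at 839 to 1436 TPM in the duodenum and at 0.34 TPM or less in the liver, and the hepatocyte gene Alb was at 32823 TPM or more in the liver and at 0.39 TPM or less in the duodenum. Fkbp5, a direct target of the glucocorticoid receptor, was at 304 ± 66.7 TPM in CORT and 15.4 ± 7.41 TPM in Veh in the duodenum, and at 248 ± 26.1 and 13.1 ± 6.20 TPM in the liver.

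In the liver the antibody genes were near the bottom of the scale. The 6 heavy chain genes summed to 9.23, 19.7 and 13.7 TPM in Veh and to 2.11, 6.27 and 7.55 TPM in CORT, and Igha made up 34.8% ± 20.7 of that sum in Veh and 14.9% ± 5.25 in CORT (SD, n = 3), with overlap. Of the 10 genes, 7 reached the mean of 1 TPM in one of the groups that a test required, and 0 were called, against 6.92% of the 11699 tested genes. Without adjustment of p, 4 were lower, against 5.49% of all tested genes. Igha, Ighg2b and Jchain passed the filter through their Veh mean alone, so their differences cannot serve as support. The groups did not overlap, with CORT lower, for these 3, for Igkc and, below the filter, for Ighg1, against 11.6% of all tested genes.

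Igha in the liver was at 4.35, 9.10 and 1.49 TPM in Veh and at 0.41, 1.01 and 0.69 TPM in CORT. The Veh libraries were widely spread and Veh3 was close to CORT2. The log2 change was -1.60 (SE 0.48, adjusted p = 0.0912), and of the libraries omitted in turn only Veh3 brought it past the threshold (-2.13, adjusted p = 0.0354). Ighm, which had the highest mean of the heavy chains in both groups, was at 3.31, 7.61 and 9.55 TPM in Veh and at 1.34, 4.38 and 3.3 TPM in CORT (log2 change -0.95, SE 0.42, adjusted p = 0.205), with overlap.

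Ighg2b was at 0.81, 1.86 and 1.63 TPM in the Veh livers, and in the CORT livers it was listed at 0 in CORT1 and was at 0.23 and 0.10 TPM in the others. All CORT libraries were under all Veh libraries. Its log2 change of -1.11 (SE 0.26) had an adjusted p of 0.0504, outside the threshold. It was called under 3 other scalings of the libraries and without the trend in limma. It passed the filter through its Veh mean alone, so these calls cannot serve as support. Ighg2c went the other way through 1 library, at 2.92 TPM in CORT3 and at 0.52 TPM or less in the other 5 (log2 change 0.44, adjusted p = 0.588). Ighg2c passed the filter through its CORT mean alone, so its difference cannot serve as support either. Ighg1 and Ighg3 were at 0.58 TPM or less in every liver library and were not tested.

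Igkc was the most abundant antibody transcript of the liver, at 14.3, 49.5 and 18.2 TPM in Veh and at 2.11, 5.66 and 13.6 TPM in CORT. CORT3 came close to Veh1, and Veh2 stood far above the others. The log2 change was -1.87 (SE 0.64, adjusted p = 0.123). Jchain was at 0.59, 1.91 and 1.23 TPM in Veh and at 0.43, 0.18 and 0.20 TPM in CORT (log2 change -0.78, SE 0.28, adjusted p = 0.14). Pigr, which liver cells and bile duct cells also make, was at 395, 492 and 374 TPM in Veh and at 363, 331 and 412 TPM in CORT, with overlap and a log2 change of -0.18 (SE 0.16, adjusted p = 0.492).

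**Figure D4:**
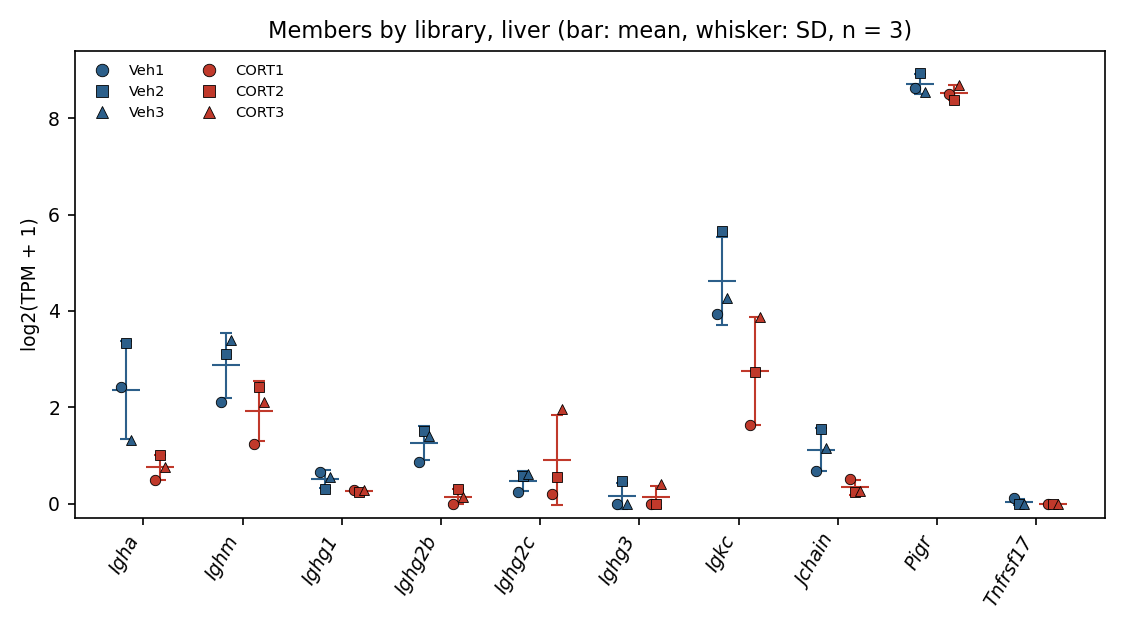
Levels of the 10 genes in each liver library, as log2(TPM + 1), with Veh in blue, CORT in red, a bar for the mean and a whisker for the SD of 3 libraries. Pigr is at 331 to 492 TPM with overlapping groups, while every other gene is at 49.5 TPM or less.

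Some defining plasma cell genes were barely detected in the liver, while Sdc1, Xbp1 and Derl3 were not scarce in all libraries. Tnfrsf17 was listed at 0 in 5 of the 6 libraries and stood at 0.08 TPM in Veh1, and Prdm1, Irf4, Mzb1 and Ccr10 were at 0.53 TPM or less in each library. Sdc1 and Xbp1, which hepatocytes express as well, were at 64.8 to 131 TPM and at 77.7 to 209 TPM, with log2 changes of 0.30 and -0.76 (adjusted p = 0.528 and 0.1). Derl3 was at 6.17, 0.89 and 1.72 TPM in Veh and at 14.6, 4.31 and 4.87 TPM in CORT, with overlap. Its log2 change was 1.24 (SE 0.58, limma adjusted p = 0.232). The 7 tested plasma cell identity genes had 5 positive and 2 negative log2 changes. Their median was 0.59, against 0.08 over all tested liver genes. Of 7 tested plasma cell identity genes, Ell2 was called higher (log2 change 1.09, SE 0.15, adjusted p = 0.0104), and of 15 secretion genes, Herpud1 was called higher (1.13, adjusted p = 0.045) and Fkbp11 lower (-1.33, SE 0.20, adjusted p = 0.0148). Fkbp11, a folding enzyme of secretory cells, was at 23.7 to 25.5 TPM in Veh and 6.56 to 11.95 TPM in CORT. Over all 11699 tested liver genes, 575 were called higher and 235 lower.

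B cell genes of the liver were scarce, and 0 were called of the 4 tested of 18. Of these 4, 3 passed the filter through their Veh mean alone, so their negative log2 changes cannot serve as support. Cd79b, the other signalling partner of surface immunoglobulin, was at 1.02, 2.90 and 0.95 TPM in Veh and at 0.09 TPM, listed at 0, and at 0.10 TPM in CORT (log2 change -1.23, SE 0.32, adjusted p = 0.0651). Ighd was above 0 in each Veh library and listed at 0 in each CORT library. The summed B cell list was 8.58 to 15.5 TPM in Veh and 2.39 to 6.45 TPM in CORT, moving with the antibody genes, and its part in their levels was not tested. Among 18 tested inducers of Pigr in the liver, 3 were called higher, against 575 of all 11699 tested liver genes. Hnf4a and Ticam1 were among the 3, with log2 changes of 0.86 and 0.61 (adjusted p = 0.0211 and 0.0289). Pigr itself was not called. With each of the 6 liver libraries omitted in turn, Ell2 passed in 5 cases, Fkbp11 and Hnf4a in 3, and Herpud1 and Ticam1 in 1 each.

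The changes in both tissues were compared by a treatment by tissue term fitted over all 12 libraries, with the duodenal change minus the liver change as the contrast. Tnfrsf17 alone of the 10 genes passed (difference -1.25, SE 0.22, adjusted p = 0.0119), against 3.61% of 14806 genes. It was listed at 0 in 5 of the 6 liver libraries, so the term repeats its duodenal change and no difference between tissues can be read from it. It did not pass with a pseudocount of 0.1 (adjusted p = 0.163) or with the replicate block (0.0581). For Igha the difference was 0.21 (SE 0.55, adjusted p = 0.88), for Igkc 0.47 (SE 0.74, adjusted p = 0.787), for Jchain -0.72 (SE 0.40, adjusted p = 0.376) and for Pigr -0.51 (SE 0.27, adjusted p = 0.347). For Ighm it was 1.42 (SE 0.81, adjusted p = 0.388). The standard errors of these differences leave room for changes of unequal size as well as for equal ones.

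**Figure D5:**
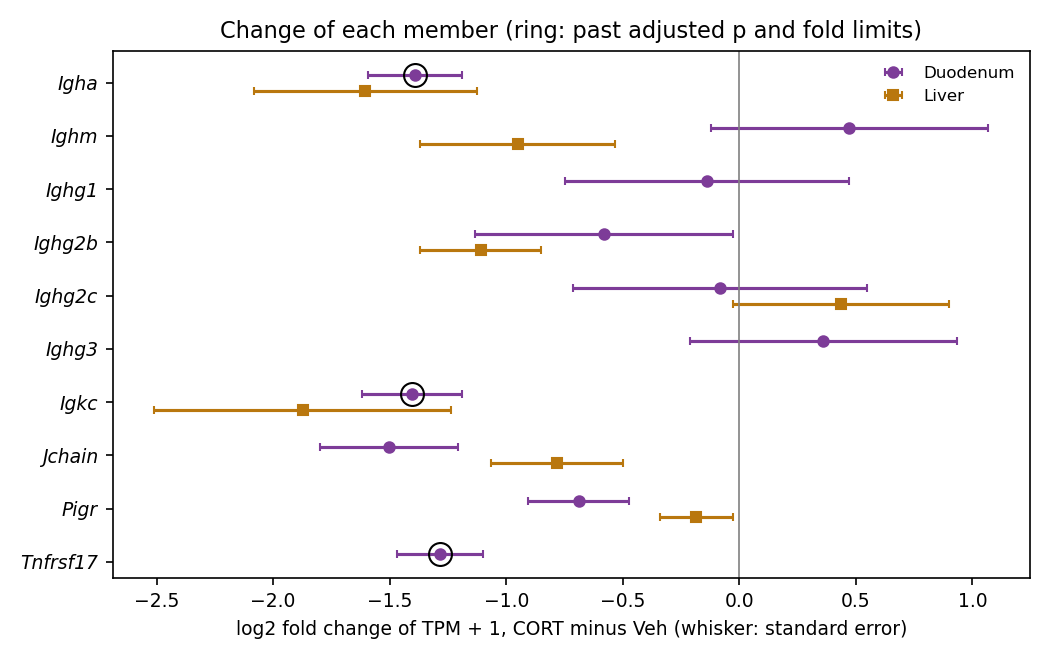
Log2 fold change of TPM + 1, CORT minus Veh, for each gene in the duodenum (purple circles) and liver (orange squares), with standard errors as whiskers and a ring around calls. Rings mark Igha, Igkc and Tnfrsf17 in the duodenum, and genes below the filter in the liver have no square.

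Genes whose pattern over the 6 duodenal libraries was most like the antibody genes were ranked by Pearson r with the mean standardised level of Igha, Igkc, Jchain and Tnfrsf17. Of 13373 genes compared, 81 had r above 0.95. The closest were 4921531C22Rik (r = 0.996), Fech (0.995), Micu2 (0.992), Pir (0.990) and the homing receptor Ccr10 (0.986). In the liver, with Igkc and Jchain as the reference, 200 of 11606 genes had r above 0.95, and among the 5 closest were Rps24 (r = 0.998), Rpl7a-ps11 (0.996), P2rx4 (0.996) and Rpl7a (0.996). The points share the treatment groups and the libraries, so these values describe likeness only.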

How the data were processed

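RNA-seq of duodenum and liver was analysed from 3 CORT and 3 Veh libraries per tissue, grouped by their labels. The authors' reads were cleaned by SeqPrep and Sickle, mapped by HISAT2, assembled by StringTie and quantified by RSEM. The submitters' processing notes name the build GRCm39, and versions are not given in the sources used here. The authors deposited 1 TPM value for each gene in each library, without pooling. TPM keeps no depth, so precision comes only from the spread between 3 samples per group. The limma p-values use that spread after drawing it toward a trend over all tested genes.

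Genes whose CORT or Veh mean reached 1 TPM entered the tests, and log2(TPM + 1) was fitted per tissue with limma 3.58.1 (lmFit, eBayes with trend) in R 4.3.3, which was tested on simulated data. Calls needed a Benjamini-Hochberg adjusted p of 0.05 or less over all tested genes and a fold change over 1.5. The same replicate numbers in CORT and Veh did not pair samples: correlations of their deviations ran from -0.12 to 0.0734. The labels do not say whether liver and duodenum libraries came from the same mice. The treatment by tissue term took all 12 libraries as independent.

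Named genes were the 10 members, the called genes of 20 gene lists, and a few defining genes of each cell type; some that this rule selects are not reported here. The members and lists were chosen with earlier results of these data known. Constant regions came from GENCODE M21 and promoters from RefSeq, both on GRCm38, and no gene positions on GRCm39 are given. Alternatives were another pseudocount, no filter, a replicate block, other scalings, no trend, other limits, and leaving out libraries.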

Additional observations from a re-analysis of the deposited data

Results flagged for a closer look

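In Tnfrsf17, the treatment by tissue term differed from 0. The duodenal log2 change minus the liver log2 change was -1.25 (SE 0.22, limma adjusted p = 0.0119). The duodenal levels were lower in 3 of 3 CORT libraries than in any Veh library. The liver listed the gene at 0 in 5 of 6 libraries, so its liver change could hardly move, the term repeats the duodenal change, and no difference between tissues can be read from it. With a pseudocount of 0.1 the difference was -1.46 and did not pass (adjusted p = 0.163), and with the replicate block it did not pass either (adjusted p = 0.0581). Groups of 3 libraries are too small for a test of single outlying libraries, so none was made.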

How the results depend on the processing

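In the duodenum 3 of the 10 genes were called lower, and the same 3 with a pseudocount of 0.1, with 3 other scalings, without the trend and without the fold limit. The count was 0 without the filter on low values, 0 with the replicate block and 5 at unadjusted p. The fit without Veh2 and Veh3, chosen after seeing the data, left a lone Veh library, so its calls are not counted here. Leaving out each library gave 0 to 2. None of the 10 genes was called higher in any of these fits of either tissue. In the liver the count of lower genes was 0, and 1 (Ighg2b) with median-ratio scaling, with acinar genes removed, relative to non-immunoglobulin genes and without the trend. It was 4 at unadjusted p, and leaving out each library gave 0 to 1. Ighg2b passed the filter through its Veh mean alone, so its calls cannot serve as support. The scalings with acinar genes removed and relative to non-immunoglobulin genes called 838 and 837 liver genes and were close to one another. The treatment by tissue term called 1 gene, and 0 with a pseudocount of 0.1 or with the replicate block. The replicate numbers pair no samples in the labels or the data, so the block is given only here.

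Over all genes, 292 were called in the duodenum, 52 without the filter, 62 with the block, 1395 at unadjusted p and 66 to 237 without 1 library. In the liver 810 were called, 283 without the filter, 307 with the block, 1808 at unadjusted p and 247 to 831 without 1 library. Median-ratio scaling of the liver gave 543 higher and 468 lower against 575 and 235, and moved the median log2 change from 0.08 to -0.00283. In the duodenum, scaling to non-immunoglobulin genes gave 154 higher and 163 lower against 167 and 125.

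The sign of some uncalled genes turned when 1 library was left out, and the cause was not tested. In the duodenum, leaving out libraries gave log2 changes from -0.28 to 0.95 for Ighm, -0.76 to 0.45 for Ighg1, -0.71 to 0.48 for Ighg2c, -0.28 to 0.80 for Ighg3 and -0.58 to 0.37 for Cd79b. For Ticam1, which was called in the liver only, it ran from -0.23 to 0.0592 in the duodenum. Without Veh2 and Veh3 the changes were 0.62 for Ighg2c, 0.28 for Cd79b, 0.17 for Fkbp11 and 0.0659 for Ticam1. In the liver they ran from -0.0937 to 0.48 for Cxcl13 and from -0.0194 to 0.41 for Ccl25. The tissue differences ran from -0.28 to 0.73 for Igha, -0.53 to 0.69 for Ighg1, -0.17 to 1.004 for Ighg2b, -1.15 to 0.0448 for Ighg2c, -0.26 to 0.82 for Ighg3 and -0.0862 to 1.03 for Igkc, and that of Jchain was 0.28 with a pseudocount of 0.1. Depth is unknown, so low levels such as those of the liver have no stated counting error.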
